A study of Mus musculus with 8 samples.

Results

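Of 44674 genes in the count table of brown adipose tissue (BAT), 76 encode C-type lectins, paired receptors or Ms4a proteins, many of them known from myeloid cells. They were chosen by symbol alone: each gene identifier was matched to the GENCODE annotation of GRCm38, and protein-coding genes of the Clec, Trem, Lilr, Pira, Pirb, Siglec, Cd300 and Ms4a families were kept, with the exception of Clec7a and Trem2. The rule itself used no measured value, but earlier results of these data were known when it was set. After a filter on low counts, 43 of the 76 members were tested, 24 had counts but did not pass the filter, and 9 had no counts in any mouse.

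Tissue came from 4 control mice (Ox1R fl/fl, Sert-Cre wt/wt) and 4 Ox1RΔSERT mice (Ox1R fl/fl, Sert-Cre tg/wt), all male and on a high-fat diet (HFD) from week 4 to week 18 of age. It was taken between 14 and 16 h, at the end of a hyperinsulinemic-euglycemic clamp, in which insulin is infused and glucose is given to hold blood glucose steady. Sert-Cre acts in cells that express the serotonin transporter, mainly serotonergic neurons, where it is meant to delete the orexin receptor Ox1R. Whether cells of BAT carry the deletion was not tested. The comparison asks how the loss of this receptor in serotonergic neurons changes the RNA of BAT in obese mice. The total of the estimated counts was 39522431, 35852708, 48106143 and 50020837 for control mice (10684, 11253, 11560, 11563) and 50063339, 42606857, 41562505 and 42512627 for Ox1RΔSERT mice (11243, 11601, 11613, 11708), and all values of mice below are given in this order. Normalized values are counts relative to the library's total (CPM) after scaling by edgeR's TMM method, and 3 counts, the floor for a value read as above 0, correspond to normalized values between 0.0592 and 0.0951, which covers counting error only.

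The brown adipocyte markers Ucp1, Cidea, Adipoq, Plin1, Fabp4, Pparg, Ppargc1a and Elovl3 were abundant in every mouse, with a summed level of 12035, 10930.1, 11102 and 11188 among controls and 10292, 11623, 12794 and 10106 in Ox1RΔSERT mice in TPM, a level per transcript length that is comparable between genes. Summed as normalized values they were 12914, 13624, 13475 and 12962 among controls and 12223, 9121, 11549.6 and 8519 in Ox1RΔSERT mice, lowest in 11601 and 11708. For Ucp1 alone, which encodes the uncoupling protein of brown fat, normalized values were 3731, 3806, 4894 and 4631 among controls and 3817, 2513, 2903 and 2513 in Ox1RΔSERT mice. Transcripts of the targeted gene, Hcrtr1, lay between 0 and 0.159 in the 8 mice, at or near the floor in both groups, so the deletion cannot be read in this tissue. Mitochondrially encoded genes took 40.0%, 46.8%, 42.7% and 42.1% of the counts among controls and 44.6%, 33.6%, 34.0% and 36.2% in Ox1RΔSERT mice.

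C-type lectins and paired receptors sit on the surface of macrophages, monocytes, dendritic cells and neutrophils, where they bind glycans, lipids, dying cells or self proteins. Many exist in activating and inhibitory versions encoded side by side in gene clusters: activating receptors signal through the adaptors Fcer1g or Tyrobp and the kinase Syk, and inhibitory ones recruit the phosphatases Ptpn6 and Ptpn11. In adipose tissue most of them mark resident and recruited macrophages, but some genes that share these names, such as Clec14a, Clec16a and Cd300lg, are expressed in endothelial or many other cells.

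Most tested members had higher RNA levels in Ox1RΔSERT mice, and mice 11601 and 11708 carried most of that difference. edgeR's quasi-likelihood test called 0 members at an adjusted p under 0.05, as it did for all 14489 genes tested (0%), and the lowest adjusted p of any gene was 0.316. At an unadjusted p under 0.05, 25 of the 43 tested members were higher in Ox1RΔSERT mice, beside 10.2% of all tested genes, and 1 member, Clec2e, was lower, beside 4.96% of all. With limma's voom in place of edgeR, 12 members were higher at this threshold, beside 892 of all 14489 genes. DESeq2 called 6 members higher, beside 1.54% of 15119 genes with an adjusted p, and 0 members lower, beside 0.212%. Values of the groups did not overlap in 7 members that were higher (2.69% of all tested genes) and in 1 that was lower (2.81%). The log2 fold change was positive in 35 tested members and negative in 8, with a median of 1.24 and a range from -0.56 to 2.83, whereas the median of all tested genes was 0.002. The filter favours genes with counts in at least some mice. Without it, 67 members could be fitted, of which 33 were higher and 1 was lower at an unadjusted p under 0.05, beside 1978 and 774 of all 24567 genes fitted. In bulk tissue, more cells of a kind and more RNA per cell cannot be told apart.

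These counts moved with single mice. The 25 higher members became 14 without control mouse 11560, 12 without Ox1RΔSERT mouse 11601 and 11 without 11708, and the lower one, Clec2e, kept an unadjusted p under 0.05 only without control mouse 10684. The 7 higher members without overlap became 18 of 46 without control mouse 11253 (6.07% of all genes) and 11 of 46 without Ox1RΔSERT mouse 11243 (7.32% of all), and the lower ones became 2 of 43 without 11613 (5.26% of all). DESeq2's 6 members (Clec4d, Clec4e, Clec4n, Pirb, Ms4a6d and Ms4a7) became 0 when control mouse 11560 or 11563 or Ox1RΔSERT mouse 11601 or 11708 was left out, 9 without control mouse 11253, 26 without Ox1RΔSERT mouse 11243 and 22 without 11613. Counts over all genes moved too: the 1482 higher genes became 718 without 11560, 945 without 11563, 741 without 11601 and 721 without 11708, and DESeq2's 265 calls in both directions became 17, 49, 17 and 19 without 11560, 11563, 11601 and 11708, 247 without 11253, 1516 without 11243 and 936 without 11613. Without control mouse 10684 or 11253, Clec4d, Pirb and Ms4a6d were still called, but Clec4n was called in neither case, Ms4a7 not without 10684 and Clec4e not without 11253.

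**Figure D1:**
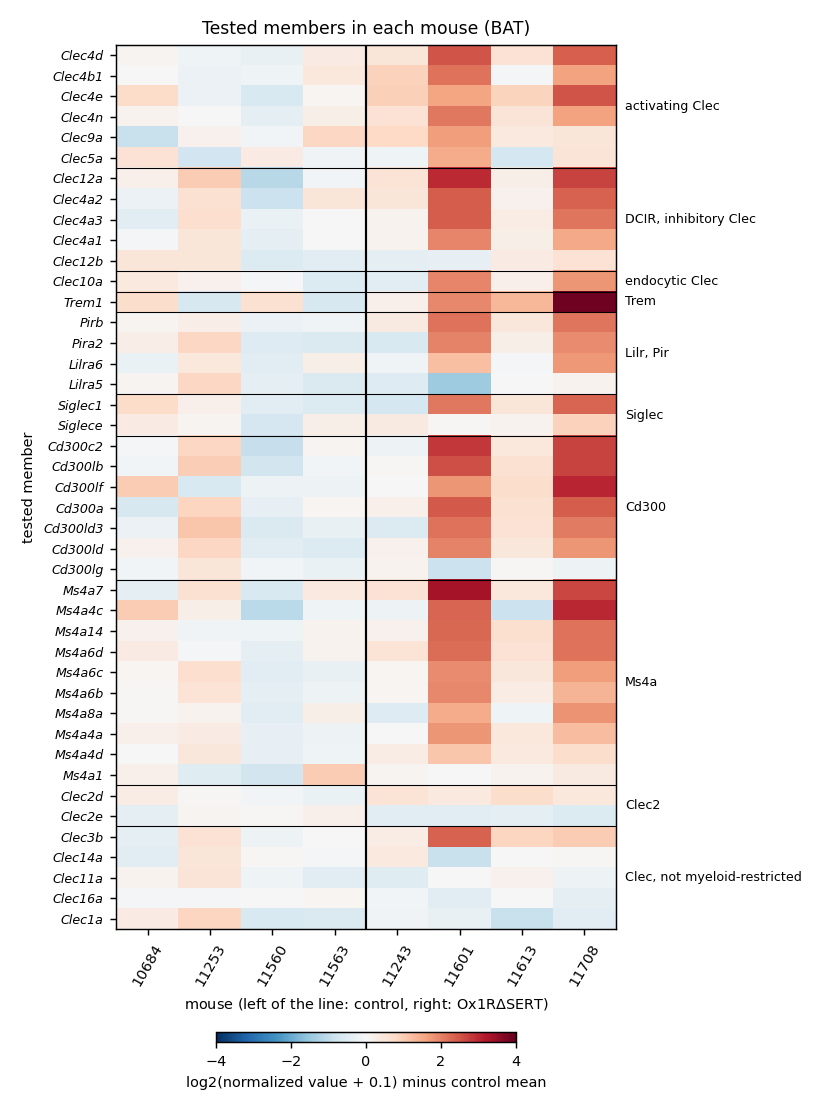
Normalized values of the 43 tested members in each mouse, as log2(value + 0.1) minus the control mean, in color; each line of the grid is a member, grouped by family, and each column a mouse, with control mice on the left. The columns of Ox1RΔSERT mice 11601 and 11708 are red in most members, and those of 11243 and 11613 are near the control mice.

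In 30 of the 43 tested members, the 2 highest values belonged to mice 11601 and 11708, which also held for 24 of the 25 members that were higher (the exception was Clec2d). Among all tested genes this was so in 2918 of 14489, and among all genes higher at an unadjusted p under 0.05 in 1278 of 1482. Mouse 11601 had the highest value in 24 members and 11708 in 10, while control mouse 11560 had the lowest in 22. Summed over the 76 members, the level was 107, 113, 86.1 and 95.9 among controls and 111, 398, 165 and 318 in Ox1RΔSERT mice in TPM. Summed as normalized values, it was 231, 278, 199 and 207 among controls and 247, 499.9, 273 and 457 in Ox1RΔSERT mice. On both scales Ox1RΔSERT mouse 11243 lay inside the range of the control mice and 11601 and 11708 lay above it, by less with normalized values, whereas 11613 lay above it in TPM and inside it with normalized values. As a share of all counts the members took between 0.0183% and 0.0595% of a mouse's total.

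Without mice 11601 and 11708, 46 members passed the filter, their median log2 fold change was 0.23 (all genes, -0.01) and 5 of them were higher at an unadjusted p under 0.05, which is 10.9% against 1.66% of all 14856 genes tested. These 5 were Clec4d, Clec2d, Pirb, Ms4a6d and Cd300ld5, the last of which was not tested with all 8 mice. In that comparison of 4 control mice with 2 Ox1RΔSERT mice, edgeR called 0 members and 0 genes at an adjusted p under 0.05, DESeq2 called 0 members and 8 genes, and values did not overlap in 8 members that were higher, 17.4% against 5.27% of all genes.

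**Figure D2:**
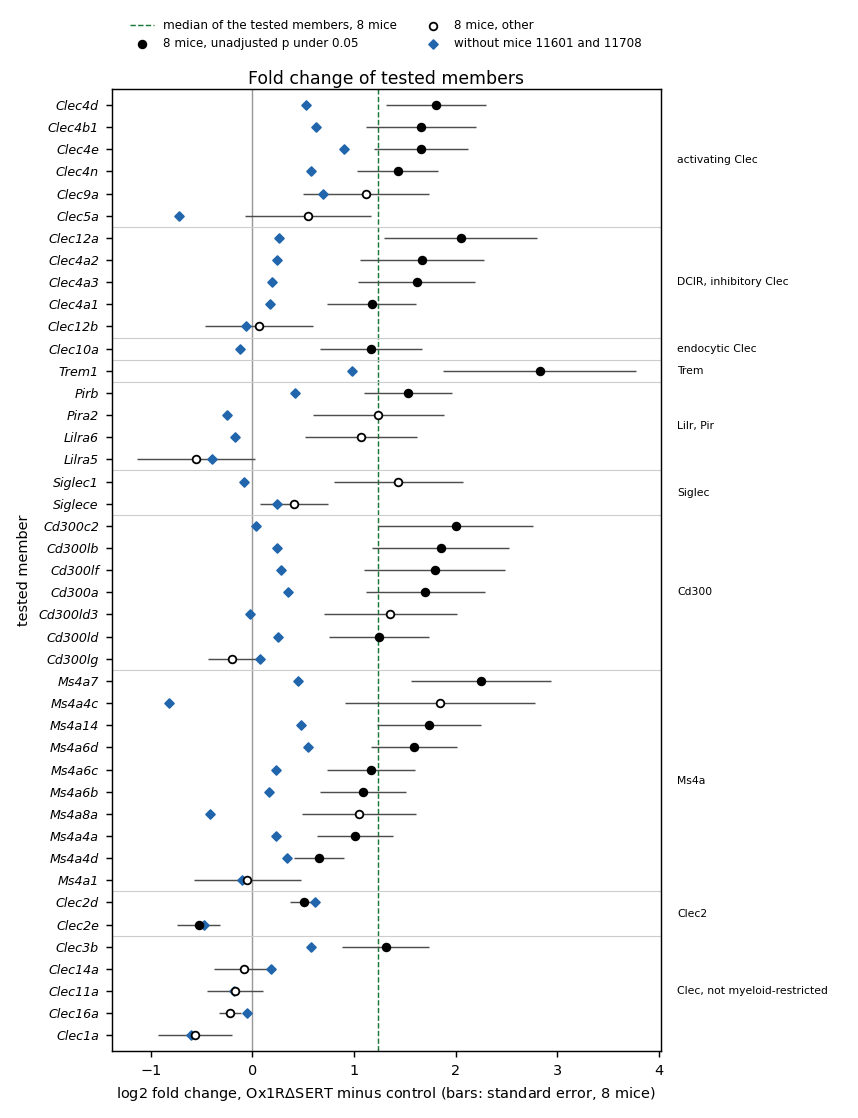
Log2 fold change of each tested member, Ox1RΔSERT minus control, from edgeR; circles are values from all 8 mice with bars of 1 standard error (filled at an unadjusted p under 0.05), and blue diamonds are values without mice 11601 and 11708. The dashed line is the median of 1.24, and most diamonds lie between 0 and this line, with Clec2d and Clec2e close to their circles.

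In 3 activating C-type lectins, Clec4d, Clec4e and Clec4n, the groups did not overlap. Of 8 genes of this kind 6 were tested, and these 3 and Clec4b1 were higher at an unadjusted p under 0.05, with a median log2 fold change of 1.54 over the 6. Clec4d (ENSMUSG00000030144, chromosome 6 from 123262111 to 123275265) encodes the Mincle partner MCL. Its normalized values were 3.19, 2.60, 2.37 and 3.70 among controls and 4.08, 17.1, 4.42 and 15.9 in Ox1RΔSERT mice. All 4 Ox1RΔSERT mice lay above all control mice, but 11243 and 11613 only by a little, whereas 11601 and 11708 lay several times higher. The means were 10.4 ± 7.10 against 2.97 ± 0.599 (SD, n = 4 in each group), with a log2 fold change of 1.81 ± 0.49 (SE), an exact permutation p of 0.0286, the smallest that 4 mice against 4 allow, and a DESeq2 adjusted p of 0.0194. Without mice 11601 and 11708 the log2 fold change was 0.52 ± 0.22 (SE).

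Clec4e (ENSMUSG00000030142, chromosome 6 from 123281789 to 123289870) encodes Mincle itself, a receptor for glycolipids of microbes and for products of dead cells. Normalized values of Clec4e were 1.52, 0.729, 0.542 and 0.925 among controls and 1.77, 2.80, 1.68 and 5.47 in Ox1RΔSERT mice. The lowest Ox1RΔSERT value lay just above the highest control value, that of mouse 10684, and mouse 11708 was highest. This is a log2 fold change of 1.66 ± 0.46 (SE), and the DESeq2 adjusted p was 0.0358. Clec4n (ENSMUSG00000023349, chromosome 6 from 123229843 to 123247021), which encodes a receptor for fungal mannans, had values of 1.23, 1.11, 0.835 and 1.32 among controls and 1.70, 5.17, 1.64 and 3.62 in Ox1RΔSERT mice. Again the groups did not overlap, and the values of 11601 and 11708 stood apart from those of the other 6 mice. For Clec4n the log2 fold change reached 1.43 ± 0.40 (SE) and the DESeq2 adjusted p 0.0406. Without mice 11601 and 11708 the values were 0.90 for Clec4e and 0.58 for Clec4n, with an unadjusted p above 0.05 in edgeR.

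**Figure D3:**
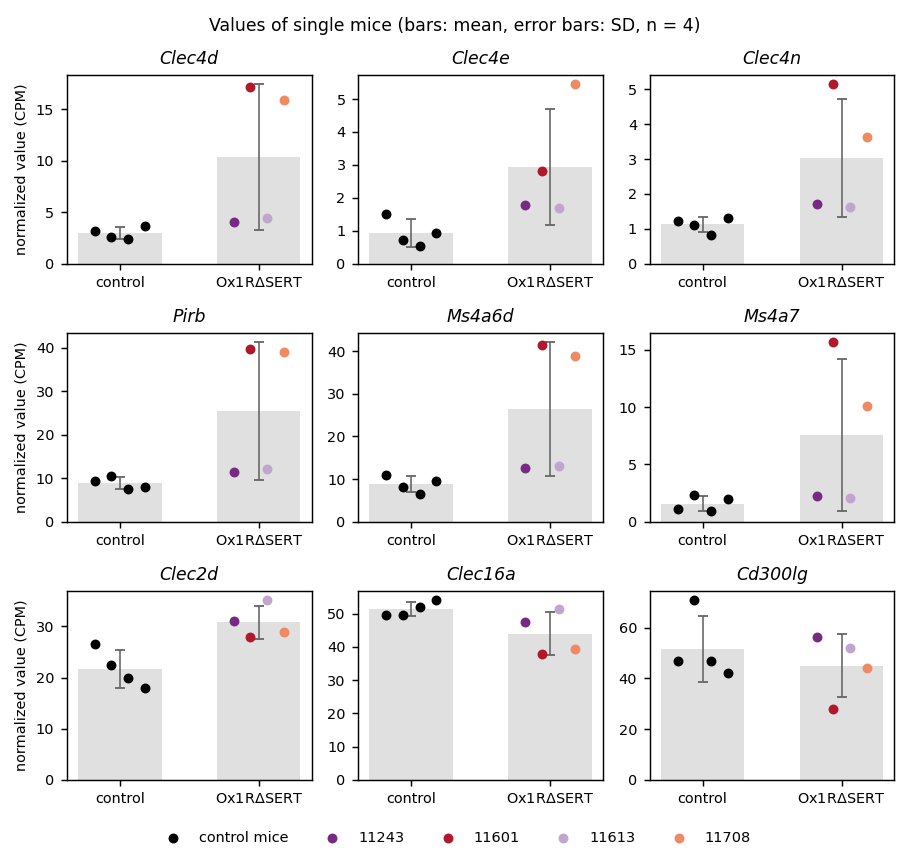
Normalized values (CPM) of 9 members in each mouse; bars are group means, error bars are the SD (n = 4), and points are mice, with each Ox1RΔSERT mouse in its own color. In Clec4d, Clec4n, Pirb, Ms4a6d and Ms4a7, mice 11601 and 11708 lie far above the rest, in Clec2d all 4 Ox1RΔSERT mice lie together above the control mice, and in Clec16a and Cd300lg the groups overlap.

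Clec4d and Clec4e lie next to each other in a stretch of chromosome 6 from 122921848 to 123289870 that holds 9 members, Clec4a1 to Clec4e, and all 7 of those that were tested there were higher at an unadjusted p under 0.05. Clec2d is a member of another cluster on the same chromosome, with a different pattern over the mice (below). As examples, the sequences around the start sites of Clec4d and Clec4e are shown beside that of Clec2d. Each runs 5′ to 3′ from 250 bases before the start site to 50 bases from it on, in RefSeq's promoter windows on GRCm38.p6: Clec4d at chr6:123261857-123262156, plus strand, Clec4e at chr6:123289822-123290121, minus strand and Clec2d at chr6:129180365-129180664, plus strand. Capitals mark GAGGAA, the core that the myeloid factor PU.1 is known to bind, and TTGCNNAA, a C/EBP-type motif, on either strand (TTCCTC is GAGGAA read on the other strand). In the same way, TTGTGCAA in Clec4e is a match to TTGCNNAA on the other strand. Neither motif occurs in the window of Clec2d. Both motifs are also absent from the windows of Clec4a2 and Clec4a3, which lie in the same stretch as Clec4d and were higher too. The window of Clec16a, a member that was not higher, holds both motifs, so these examples do not tie the motifs to the pattern over the mice.
Clec4d: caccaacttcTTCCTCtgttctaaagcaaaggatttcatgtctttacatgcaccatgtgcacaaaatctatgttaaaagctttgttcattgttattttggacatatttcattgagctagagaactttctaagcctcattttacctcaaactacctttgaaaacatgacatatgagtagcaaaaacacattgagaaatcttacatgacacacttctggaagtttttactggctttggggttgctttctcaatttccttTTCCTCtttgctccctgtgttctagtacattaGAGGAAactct
Clec4e: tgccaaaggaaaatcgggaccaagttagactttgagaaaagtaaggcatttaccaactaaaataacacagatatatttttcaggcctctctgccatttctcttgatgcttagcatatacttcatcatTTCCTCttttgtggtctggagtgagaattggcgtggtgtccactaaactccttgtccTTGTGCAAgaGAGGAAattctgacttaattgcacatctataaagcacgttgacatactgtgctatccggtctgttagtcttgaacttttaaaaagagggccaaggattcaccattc
Clec2d: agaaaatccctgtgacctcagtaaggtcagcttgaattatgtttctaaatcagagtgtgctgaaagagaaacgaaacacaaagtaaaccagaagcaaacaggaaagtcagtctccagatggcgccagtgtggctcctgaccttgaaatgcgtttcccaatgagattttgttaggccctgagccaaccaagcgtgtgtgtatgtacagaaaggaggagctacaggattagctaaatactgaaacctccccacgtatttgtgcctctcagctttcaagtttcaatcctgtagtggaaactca

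In inhibitory C-type lectins of the DCIR group the values of the groups overlapped. Of 6 genes, 5 were tested and 4 (Clec12a, Clec4a1, Clec4a2 and Clec4a3) were higher at an unadjusted p under 0.05, with a median log2 fold change of 1.62 that was 0.19 without mice 11601 and 11708. Clec4a2 (ENSMUSG00000030148, chromosome 6 from 123106428 to 123143999) encodes DCIR, and its normalized values were 0.942, 1.78, 0.587 and 1.64 among controls and 1.62, 6.51, 1.28 and 6.29 in Ox1RΔSERT mice. Values of 11601 and 11708 were high, and 11243 and 11613 lay within the range of the control mice. Exact permutation p values were 0.171 for Clec4a2, 0.143 for Clec4a3 and 0.143 for Clec4a1. Fold changes on the log2 scale were 1.67 ± 0.61 (SE) for Clec4a2, 1.62 ± 0.57 (SE) for its neighbour Clec4a3 and 1.17 ± 0.44 (SE) for Clec4a1. All 3 were past an unadjusted p of 0.05 with 8 mice but not without control mouse 10684 (1.56, 1.47 and 1.13), 11560 (1.43, 1.51 and 1.04), 11601 (1.31, 1.17 and 0.77) or 11708 (1.35, 1.38 and 1.04), nor was Clec4a1 without 11563 (1.14). Transcripts of Clec4a2 share a stretch of 436 bases with those of Clec4b1 (96.3% identical), so reads may have been split between these genes and their values are uncertain. Clec10a (ENSMUSG00000000318, chromosome 11 from 70156197 to 70170834), a galactose-binding endocytic receptor of macrophages, was the only tested one of 3 such genes. Its values were 13, 11.4, 9.73 and 6.85 among controls and 7.18, 39.2, 11.6 and 33.8 in Ox1RΔSERT mice. Mice 11601 and 11708 were high, 11613 lay within the control range and 11243 near its lower end. With all mice the log2 fold change of Clec10a was 1.17 ± 0.51 (SE), and it turned to -0.12 ± 0.29 (SE) without 11601 and 11708. The exact permutation p of Clec10a was 0.257. Its unadjusted p was above 0.05 when any mouse but 11243 or 11613 was left out, with values from 0.78 (without 11601) to 1.30 (without control mouse 10684). It shares 727 bases at 96.4% identity with Mgl2, and this value too is uncertain.

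The Pir and Lilr receptors bind MHC class I and related ligands, Pirb as the inhibitory and the Pira proteins as activating forms. All 4 members in the table were tested and 1, Pirb, was higher at an unadjusted p under 0.05. Pirb (ENSMUSG00000058818, chromosome 7 from 3711409 to 3720391) had normalized values of 9.47, 10.5, 7.43 and 7.97 among controls and 11.3, 39.6, 12.1 and 38.9 in Ox1RΔSERT mice. The groups did not overlap, with 11243 and 11613 just above the highest control mouse and 11601 and 11708 several times higher. Its means were 25.5 ± 15.9 against 8.85 ± 1.41 (SD, n = 4 in each group), with a log2 fold change of 1.53 ± 0.43 (SE), an exact permutation p of 0.0286 and a DESeq2 adjusted p of 0.0288. Without the 2 highest mice the log2 fold change of Pirb was 0.42 ± 0.16 (SE). Pira2 (ENSMUSG00000089942, chromosome 7 from 3836812 to 3845051) had values of 0.889, 1.33, 0.474 and 0.441 among controls and 0.437, 3.10, 0.853 and 2.94 in Ox1RΔSERT mice. In Pira2, only 11601 and 11708 lay above the control mice, and 11243 lay just below them. Its log2 fold change was 1.24 ± 0.65 (SE), with an unadjusted p above 0.05, and it turned to -0.25 without those mice, as that of Lilra6 went from 1.07 ± 0.55 (SE) to -0.17. An unadjusted p under 0.05 was reached by Pira2 without 11243 (1.54) and by Lilra6 without 11243 or 11613 (1.31 in both cases) or with library size scaling (1.34). Lilra5 had a log2 fold change of -0.56 ± 0.58 (SE), with counts near the floor in mouse 11601. The values of Pirb, Pira2 and Lilra6 are uncertain, because their transcripts are nearly alike: Pirb shares 2307 bases with Lilra6 (95.2% identical) and 1928 with Pira2 (96.9%), and Pira2 shares 3462 bases with Gm15922 (99.5%).

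The likeness extends to the start sites. The windows of Pirb (chr7:3720333-3720632, minus strand) and Pira2 (chr7:3845002-3845301, minus strand) are 97.1% identical over 272 aligned bases, and both are shown because these genes of opposite function, with mean levels of 4.54 and 0.382 TPM, carry the same motifs. Capitals mark GAGGAA on either strand, and where it continues to GAGGAAGT, a longer PU.1 type, all 8 bases. The window of Cd300ld on chromosome 11 (chr11:114989837-114990136, minus strand) holds the longer form as well.
Pirb: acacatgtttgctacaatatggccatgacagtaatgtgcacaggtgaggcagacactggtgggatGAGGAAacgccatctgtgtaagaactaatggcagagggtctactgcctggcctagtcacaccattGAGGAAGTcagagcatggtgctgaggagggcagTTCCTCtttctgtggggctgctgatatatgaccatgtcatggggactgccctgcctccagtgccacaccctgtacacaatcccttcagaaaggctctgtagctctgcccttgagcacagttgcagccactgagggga
Pira2: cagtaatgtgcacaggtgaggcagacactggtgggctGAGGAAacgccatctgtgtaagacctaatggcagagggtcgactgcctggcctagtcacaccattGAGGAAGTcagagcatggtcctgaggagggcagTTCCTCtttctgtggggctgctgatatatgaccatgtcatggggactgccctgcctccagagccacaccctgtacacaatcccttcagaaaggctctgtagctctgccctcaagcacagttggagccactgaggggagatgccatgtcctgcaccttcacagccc
Cd300ld: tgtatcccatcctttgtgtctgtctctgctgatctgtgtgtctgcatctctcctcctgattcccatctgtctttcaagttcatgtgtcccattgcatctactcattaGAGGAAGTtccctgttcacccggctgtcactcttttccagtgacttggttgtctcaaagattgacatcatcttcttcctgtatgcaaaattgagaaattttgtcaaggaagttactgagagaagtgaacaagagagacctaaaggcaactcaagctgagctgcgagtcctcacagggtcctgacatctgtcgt

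Promoter windows were found for 62 of the 76 members, and for 35 of the 43 tested. GAGGAA, searched on both strands, occurred in 36 of the 62 windows (58.1%) and in 28.3% of all 32851 promoter windows of the same length. Among members, it was in 13 of 21 windows of those higher at an unadjusted p under 0.05 (61.9%) and in 10 of 14 of the other tested ones (71.4%). GAGGAAGT, which contains GAGGAA, occurred in 8 members (12.9%; 3.2% of all windows), namely Cd300ld, Cd300ld3, Cd300ld4, Cd300ld5, Cd300lf, Lilra6, Pira2 and Pirb. These are not independent, since the windows of Cd300ld4 and Cd300ld5 are identical and those of Lilra6 and Pira2 agree in 96.3% of bases. The same windows are counted for GAGGAA, so the members' share of that motif does not rest on independent windows either. Each member entered with the window nearest its annotated gene start, whereas other genes could enter with several windows. TTGCNNAA occurred in 11 windows (17.7%; 10.8% of all) and the AP-1 type TGACTCA, which neither contains nor lies within the other motifs, in 6 (9.68%; 5.2% of all). A match of letters is a description and not a bound site or a cause.

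Cd300 receptors bind phospholipids such as those exposed on dying cells. Of 12 genes, 7 were tested and 5 (Cd300a, Cd300c2, Cd300lb, Cd300ld and Cd300lf) were higher at an unadjusted p under 0.05, all of them in a stretch of chromosome 11 from 114890041 to 115133992. The median log2 fold change was 1.70, and 0.25 without mice 11601 and 11708. Cd300c2 (ENSMUSG00000044811, chromosome 11 from 114996721 to 115001880) had values of 0.628, 1.24, 0.294 and 0.715 among controls and 0.546, 5.17, 0.898 and 4.79 in Ox1RΔSERT mice. Its 2 high mice were 11601 and 11708, and the other 6 mice overlapped. The exact permutation p of Cd300c2 was 0.229. Log2 fold changes were 2.0 ± 0.76 (SE) for Cd300c2, which lost its unadjusted p under 0.05 without control mouse 10684 (1.94), 11560 (1.73) or 11563 (1.97) or Ox1RΔSERT mouse 11601 (1.55) or 11708 (1.63), 1.36 ± 0.65 (SE) for Cd300ld3, whose unadjusted p was above 0.05 in edgeR with TMM but not without control mouse 11253 (1.89) or Ox1RΔSERT mouse 11243 (1.66), with library size scaling (1.67) or in DESeq2 (1.33), and -0.02 for Cd300ld3 without the high mice. Since Cd300ld3 shares 852 bases with Cd300ld4 (98.8% identical) and with Cd300ld5 (98.9%), values of this subgroup are uncertain. Cd300lg (ENSMUSG00000017309, chromosome 11 from 102041509 to 102055620), which lies apart from the others and is known from capillary endothelium, had 16.0 of the family's 19.2 TPM in control mouse 10684, but 13.6 of 38.5 in 11601 and 20.8 of 45.3 in 11708. Its normalized values were 47.0, 71.1, 46.7 and 42.1 among controls and 56.2, 28.1, 51.8 and 44.2 in Ox1RΔSERT mice. Here 11601 had the lowest value of all mice and control mouse 11253 the highest, and the groups overlapped. The log2 fold change of Cd300lg was -0.20 ± 0.24 (SE), and its direction turned with library size scaling (0.00), with log2(TPM + 1) (0.10) and without mice 11601 and 11708 (0.07).

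Ms4a genes encode proteins with 4 membrane passes, several of them expressed in macrophages, while Ms4a1 (CD20) marks B cells and Ms4a2 belongs to the mast cell receptor for IgE. All 19 lie on chromosome 19 between 10962293 and 11640851. Of these, 10 were tested, 7 were higher at an unadjusted p under 0.05 and the median log2 fold change was 1.13. Ms4a6d (ENSMUSG00000024679, chromosome 19 from 11586604 to 11604849), the most abundant in TPM in all mice but control mouse 11253, where Ms4a6c was, had values of 10.9, 8.09, 6.5 and 9.61 among controls and 12.6, 41.3, 13 and 38.8 in Ox1RΔSERT mice. No Ox1RΔSERT mouse overlapped the control mice, although 11243 and 11613 exceeded control mouse 10684 by little. Its means were 26.4 ± 15.8 against 8.78 ± 1.91 (SD, n = 4 in each group), with a log2 fold change of 1.59 ± 0.42 (SE), an exact permutation p of 0.0286, a DESeq2 adjusted p of 0.0167 and a log2 fold change of 0.55 ± 0.20 (SE) without mice 11601 and 11708. Ms4a7 (ENSMUSG00000024672, chromosome 19 from 11321039 to 11336146) had values of 1.10, 2.31, 0.948 and 2.0 among controls and 2.27, 15.7, 2.04 and 10.1 in Ox1RΔSERT mice. In this gene 11243 and 11613 lay within the control range, and DESeq2 called it (adjusted p 0.0300) on the values of the other Ox1RΔSERT mice. The log2 fold change of Ms4a7 was 2.25 ± 0.69 (SE), with an exact permutation p of 0.0857, and 0.45 without those mice. Ms4a4a and Ms4a6c had log2 fold changes of 1.01 ± 0.37 (SE) and 1.17 ± 0.43 (SE), both with an exact permutation p of 0.114. Neither stayed under an unadjusted p of 0.05 without control mouse 11560 (0.90 and 1.02) or 11563 (0.91 and 1.04) or Ox1RΔSERT mouse 11601 (0.64 and 0.85) or 11708 (0.93 and 0.98), nor did Ms4a6c without 10684 (1.16). Exons of Ms4a6c overlap 1088 bases of BE692007 on the other strand, and the strand setting of the counting is not given in the sources used here, so its value is uncertain. Ms4a14, singled out after its values were seen because its groups did not overlap, had values of 0.654, 0.507, 0.497 and 0.631 among controls and 0.655, 3.18, 0.943 and 2.90 in Ox1RΔSERT mice, with a log2 fold change of 1.74 ± 0.51 (SE). Ms4a1 stayed at 0.0903 to 0.546 in the 8 mice, with a log2 fold change of -0.05 ± 0.52 (SE).

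Trem1 (ENSMUSG00000042265, chromosome 17 from 48232768 to 48246924), which amplifies the response of neutrophils and monocytes, was the only tested one of 5 Trem genes and had the highest fold change among the 43 tested members (DESeq2 gave higher ones to 5 members below the filter). Its normalized values were 0.314, 0.0634, 0.294 and 0.0631 among controls and 0.197, 0.868, 0.539 and 3.70 in Ox1RΔSERT mice. Mouse 11708 was by far the highest, 11601 and 11613 also lay above all control mice, and 11243 lay within the control range. Trem1 had an exact permutation p of 0.0857 and a log2 fold change of 2.83 ± 0.95 (SE). It was 1.52 without mouse 11708 and 0.98 without mice 11601 and 11708, both with an unadjusted p above 0.05. In all, its unadjusted p was above 0.05 in 4 of 18 alternatives, over which values ran from 0.40 to 3.19. Siglec receptors bind sialic acid, and 2 of 6 were tested, neither of them past an unadjusted p of 0.05. Siglec1 (ENSMUSG00000027322, chromosome 2 from 131069220 to 131086765), a receptor of tissue macrophages, had values of 5.0, 3.42, 2.15 and 2.0 among controls and 1.75, 13, 4.13 and 15.1 in Ox1RΔSERT mice. Again 11601 and 11708 were high and 11243 was the lowest of all mice. Siglec1 had a log2 fold change of 1.44 ± 0.63 (SE), which turned to -0.09 without them and passed an unadjusted p of 0.05 without control mouse 10684 (1.75), Ox1RΔSERT mouse 11243 (1.75) or 11613 (1.66), with RLE (1.43) or library size (1.73) scaling, with either other filter and in DESeq2, and Siglece had 0.41 ± 0.34 (SE).

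Clec2d and Clec2e, neighbours in the NK gene complex of chromosome 6, departed from this pattern. Clec2d (ENSMUSG00000030157, chromosome 6 from 129180615 to 129186534) encodes a ligand of an inhibitory receptor on natural killer cells. Normalized values of Clec2d were 26.5, 22.4, 19.96 and 18.0 among controls and 31.1, 28.0, 35.2 and 28.8 in Ox1RΔSERT mice. All 4 Ox1RΔSERT mice lay above all control mice, and 11613, not 11601 or 11708, was the highest. The means were 30.8 ± 3.23 against 21.7 ± 3.67 (SD, n = 4 in each group), with a log2 fold change of 0.50 ± 0.14 (SE), an exact permutation p of 0.0286 and a DESeq2 adjusted p of 0.0741, which is above the threshold. Clec2d passed an unadjusted p of 0.05 under each of the 19 alternatives, with log2 fold changes from 0.41 to 0.86, and it was 0.62 ± 0.16 (SE) without mice 11601 and 11708. DESeq2 called Clec2d without control mouse 10684, the control mouse with the highest value. Clec2e (ENSMUSG00000030155, chromosome 6 from 129091998 to 129100913) had values of 0.811, 1.17, 1.11 and 1.24 among controls and 0.764, 0.750, 0.786 and 0.699 in Ox1RΔSERT mice. All Ox1RΔSERT mice were below all control mice, the nearest being control mouse 10684. Clec2e had a log2 fold change of -0.53 ± 0.21 (SE). Its unadjusted p was above 0.05 in 13 of the 19 alternatives, among them those without any 1 mouse other than control mouse 10684 (-0.56 to -0.47), and on log2(TPM + 1) the value was -0.05. The counts behind Clec2e were low, between 31.0 and 59.0 per mouse.

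Among C-type lectins that are not restricted to myeloid cells, 5 of 7 were tested and 1, Clec3b, was higher at an unadjusted p under 0.05, while the median log2 fold change was -0.17, which turned to 0.06 with library size scaling and to 0.12 and 0.20 on log2(TPM + 1) and log2(TPM + 0.1). Clec3b (ENSMUSG00000025784, chromosome 9 from 123150946 to 123157432) encodes tetranectin, a secreted plasminogen-binding protein, and had 14.4% of the members' TPM summed over all mice. Among single mice it was the most abundant member only in 11601, with 83.7 TPM. Its values were 9.47, 17.9, 10.4 and 12 among controls and 14.8, 61.7, 22.2 and 24.7 in Ox1RΔSERT mice. Mouse 11601 stood far above the rest, 11613 and 11708 lay above all control mice, and 11243 lay within their range. Its log2 fold change was 1.31 ± 0.43 (SE) with all mice and 0.58 without 11601 and 11708, and the exact permutation p was 0.0571. Clec16a (ENSMUSG00000068663, chromosome 16 from 10545339 to 10744878), an endosomal protein of many cell types, had values of 49.7, 49.8, 52.0 and 54.2 among controls and 47.4, 38.0, 51.3 and 39.4 in Ox1RΔSERT mice. In contrast to the myeloid receptors, 11601 and 11708 were the lowest mice. Clec16a had a log2 fold change of -0.22 ± 0.11 (SE) and an exact permutation p of 0.0857, its unadjusted p in edgeR was under 0.05 without mouse 11613 (-0.31), and its direction turned on log2(TPM + 1) (0.18) and log2(TPM + 0.1) (0.20). The endothelial gene Clec14a (-0.09 ± 0.29 (SE)) and Clec1a (-0.56 ± 0.37 (SE)) overlapped between the groups, and the direction of Clec14a turned with library size scaling (0.11), on both TPM scales (0.12 and 0.20) and without 11601 and 11708 (0.18).

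The scale matters for such small differences. Relative to TMM, library size scaling moved the median log2 fold change of all genes to 0.22, log2(TPM + 1) to 0.23 and log2(TPM + 0.1) to 0.32, and the median of the members minus that of all genes was 1.24 with TMM, 1.32 with library size, 0.51 on log2(TPM + 1) and 0.90 on log2(TPM + 0.1). Of all genes at an unadjusted p under 0.05, 67.3% were higher with TMM, 97.2% with library size, 98.8% on log2(TPM + 1) and 99.0% on log2(TPM + 0.1). For the members these shares were 96.2%, and 100% on the other 3 scales.

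Of the 24 members that had counts but did not pass the filter, 19 had their highest normalized value in 11601 or 11708, beside 36.4% of all 10085 such genes, but some of them had a single count. Of these members 14 exceeded 10 counts in a mouse, and 12 of the 14 were highest in 11601 or 11708 (85.7%, beside 64.1% of 1864 such genes). The 14 were Clec18a, Cd300e, Cd300ld4, Cd300ld5, Clec2i, Clec2l, Clec4f, Clec4g, Ms4a2, Ms4a4b, Siglecg, Trem3, Treml2 and Treml4. Treml2 had 9, 2, 6 and 7 counts among controls and 8, 37, 10 and 53 in Ox1RΔSERT mice. Ms4a4b, known from T cells, had 4, 4, 4 and 5 counts among controls and 6, 46.6, 4 and 30.7 in Ox1RΔSERT mice. In both genes 11601 and 11708 held most of the counts and the other 6 mice overlapped. No counts were found for Clec2h, Clec3a, Ms4a5, Ms4a10, Ms4a12, Ms4a13, Ms4a15, Ms4a18 and Siglec15.

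The adaptors, kinases and phosphatases through which these receptors signal showed a like pattern. Of 26 genes on this list, which also holds Clec7a and Trem2, 25 were tested, with a median log2 fold change of 1.41. At an unadjusted p under 0.05, 16 were higher, beside 10.2% of all tested genes. At this threshold 1 (Ptpn11, whose direction turned on both TPM scales) was lower, beside 4.96% of all. The lower call of Ptpn11 was lost under every other scaling and filter, with voom, with robust dispersions and without any 1 of mice 10684, 11560, 11563, 11601, 11613 and 11708. edgeR called 0 of the partners at an adjusted p under 0.05 and DESeq2 called 8, all higher, beside 1.54% of all genes with an adjusted p. The adaptor Fcer1g, which pairs with Clec4d, Clec4e and Clec4n, had values of 5.68, 5.07, 3.52 and 4.67 among controls and 6.20, 24.7, 6.35 and 21.8 in Ox1RΔSERT mice. As with its receptors, the groups did not overlap, and 11243 and 11613 lay just above control mouse 10684. Fcer1g had a log2 fold change of 1.64 ± 0.47 (SE), and Tyrobp, Syk and Card9 had 1.69 ± 0.55 (SE), 1.60 ± 0.51 (SE) and 1.4 ± 0.38 (SE). Not all partners were high: with library size scaling, Bcl10 was at 0.29 and Malt1 at 0.56, both with an unadjusted p above 0.05 in edgeR. On that scale the median of all genes was 0.22. Of the phosphatases on the inhibitory side, Ptpn6 had 1.77 ± 0.49 (SE), with a DESeq2 adjusted p of 0.0288, and Inpp5d 0.93 ± 0.47 (SE). Ptpn11, which most cells express, was at -0.26 ± 0.11 (SE) with TMM and turned to 0.07 on log2(TPM + 0.1). Vav1 had values of 1.18, 1.4, 0.835 and 1.41 among controls and 2.64, 6.51, 2.56 and 7.47 in Ox1RΔSERT mice, without overlap, and a log2 fold change of 1.99 ± 0.40 (SE). Clec7a and Trem2, the receptors set apart from the members, had log2 fold changes of 1.97 ± 0.75 (SE) and 2.83 ± 0.77 (SE), both with 11601 and 11708 as the high mice. Without those mice, 1 of the 25 partners was higher and the median was 0.27.

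Markers of monocytes and macrophages moved with the members. Of 12 such genes, 11 were higher at an unadjusted p under 0.05 (the exception was Cd163, at -0.37 ± 0.27 (SE), which turned to 0.01 on log2(TPM + 0.1)), none was at 0 in any mouse, and the median log2 fold change was 1.62. The 11 became 7 without control mouse 11560 or Ox1RΔSERT mouse 11601, 8 without 10684 or 11708, and 7 with voom. Their summed TPM was 129, 153, 81.9 and 107 among controls and 125, 909, 174 and 699 in Ox1RΔSERT mice, with Lyz2 as the most abundant gene (49.4%). As in the members, 11601 and 11708 were high, and without them 0 of 12 markers were higher and the median was 0.27. edgeR called 0 of these markers at an adjusted p under 0.05, with all mice, and DESeq2 called 4 (Itgam, Mrc1, Cd14 and Fcgr3).

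**Figure D4:**
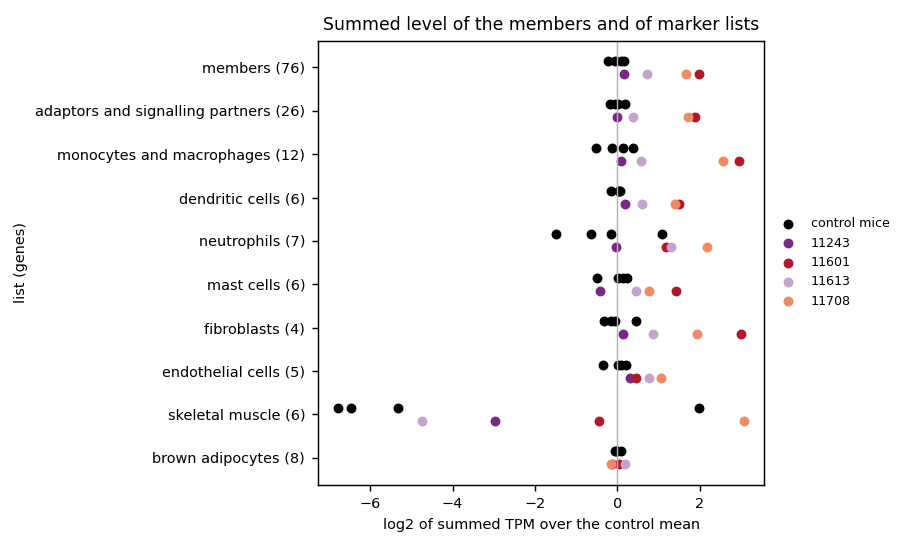
Summed TPM of the members and of marker lists in each mouse, as log2 over the control mean; black points are control mice, colored points are Ox1RΔSERT mice, and the number of genes is in parentheses. In the members, their partners, macrophage and fibroblast markers, 11601 and 11708 lie to the right of the other mice, and brown adipocyte markers lie near 0 in all 8 on this scale, though not as normalized values.

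Other lists moved in part. All 4 fibroblast markers were higher at an unadjusted p under 0.05, but only 2 without control mouse 10684, 11560 or 11563 or Ox1RΔSERT mouse 11601, and 0 without 11601 and 11708 together (median 0.47). With all mice the median was 1.46, and fibroblast markers had a summed TPM of 48.9, 83.5, 54.9 and 58.6 among controls and 67.5, 490.4, 112 and 233 in Ox1RΔSERT mice, with Dcn as the most abundant in all mice but 11708, where Col1a1 was. Of dendritic cell markers 2 of 6 were higher (1 without 11560, 11563, 11601 or 11708, but 4 on log2(TPM + 1) and 3 on log2(TPM + 0.1)), with a summed TPM of 2.89, 2.86, 2.47 and 2.85 among controls and 3.16, 7.77, 4.2 and 7.30 in Ox1RΔSERT mice. Zbtb46 was the most abundant of them in all mice but 11601, where Itgax was. The log2 fold change of Zbtb46 was 0.10 with TMM. On log2(TPM + 1) and log2(TPM + 0.1) it was 0.29 and 0.43, higher at an unadjusted p under 0.05. Neutrophil markers had 2 of 6 higher, and sums of 43.7, 13.4, 18.5 and 7.41 among controls and 20.4, 47.3, 51.3 and 93.0 in Ox1RΔSERT mice, with S100a9 as the most abundant in all mice but control mouse 11563, where S100a8 was. The 2 became 5 without control mouse 10684, 1 with voom or without 11560 or 11613 and 0 without 11253, 11563 or 11708, and on other scales 3 with library size, 3 on log2(TPM + 1) and 4 on log2(TPM + 0.1). Control mouse 10684 lay near the Ox1RΔSERT mice, and Ly6g, the defining marker, was at or near the floor. For platelets, 1 of 3 tested markers (Pf4; 0 with voom, without 11560, 11601 or 11708 or on log2(TPM + 1)) was higher, for plasma cells 1 of 2 (Sdc1; 0 with voom or without 11601 and 11708 together), with Mzb1 and Tnfrsf17 under 3 counts, and for endothelial cells 1 of 5 (Cldn5; 0 without 11563, 11613 or 11708, but 2 with library size scaling and 3 on either TPM scale). No mast cell marker of 6 (1 without 10684 or 11243 or with library size scaling), no skeletal muscle marker of 6 (but all 6, with a median of 7.0, without control mouse 11253) and no T cell marker (1 tested, Cd4; 1 of 2 without 10684 or 11613) passed, and 2 of 8 brown adipocyte markers, Ucp1 and Elovl3, were lower. The lower adipocyte markers numbered 1 on either TPM scale and without 11560 or 11563, 3 without 10684 or 11243 and 4 without 11613. B cell, NK cell and eosinophil markers did not pass the filter, with Epx and Ear6 at 0 in all mice. The eosinophil marker Ccr3 had 45 and 40 counts in 11601 and 11708 against 1 to 3 in the other mice, and without the filter 1 of 2 eosinophil markers was higher at an unadjusted p under 0.05, with a median of 3.07. Skeletal muscle RNA differed greatly between mice within both groups, with sums of 3.06, 489, 1.41 and 1.13 among controls and 15.8, 91.0, 4.58 and 1036 in Ox1RΔSERT mice. The sums were highest in Ox1RΔSERT mouse 11708 and control mouse 11253. What part macrophage, fibroblast or other cells have in the members' differences was not tested.

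The members were also set against the macrophage markers mouse by mouse. For each of the 27 members named by rule, the mean log2(value + 0.1) of the 12 markers was subtracted, a mean of 4.07, 4.49, 3.43 and 3.80 among controls and 4.09, 6.13, 4.38 and 5.97 in Ox1RΔSERT mice. After this, 0 members were higher without overlap and 1, Clec2e, was lower, and of all 14489 tested genes, treated in the same way, 0.0621% were higher and 2.96% lower. The marker mean is itself high in 11601 and 11708, hardly any gene was higher relative to it, and the 0 does not set the members apart from other genes. Pirb was at -0.81, -1.08, -0.52 and -0.79 among controls and -0.57, -0.82, -0.77 and -0.68 in Ox1RΔSERT mice. Those values of the groups interleaved, with 11601 and 11708 among the control mice. Clec4d was at -2.35, -3.06, -2.13 and -1.88 among controls and -2.02, -2.03, -2.20 and -1.97 in Ox1RΔSERT mice, likewise with overlap. Ms4a7 had the second largest positive difference between the group means, 0.56, after Trem1 with 0.64, and both overlapped. Some members known from other cells had low relative values in 11601 and 11708: Cd300lg was at 1.49, 1.66, 2.12 and 1.60 among controls and 1.73, -1.32, 1.32 and -0.50 in Ox1RΔSERT mice. Clec3b was low in 11708 but not in 11601, at -0.81, -0.32, -0.05 and -0.20 among controls and -0.19, -0.19, 0.10 and -1.34 in Ox1RΔSERT mice. Clec2d, which was higher in all Ox1RΔSERT mice before, was at 0.67, 0.00, 0.89 and 0.38 among controls and 0.88, -1.32, 0.76 and -1.11 in Ox1RΔSERT mice. The count of members lower without overlap was 8 relative to Ptprc, a gene of all leukocytes (16.6% of all genes), 1 relative to Adgre1 (Lilra5; 1.41% of all) and 2 with TPM (4.04% of all). It went from 1 to 4 without control mouse 11563 (3.73% of all), 3 without 11243 (30.1%) and 2 without 10684 (5.35%), 11253 (36.9%) or 11613 (4.81%).

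**Figure D5:**
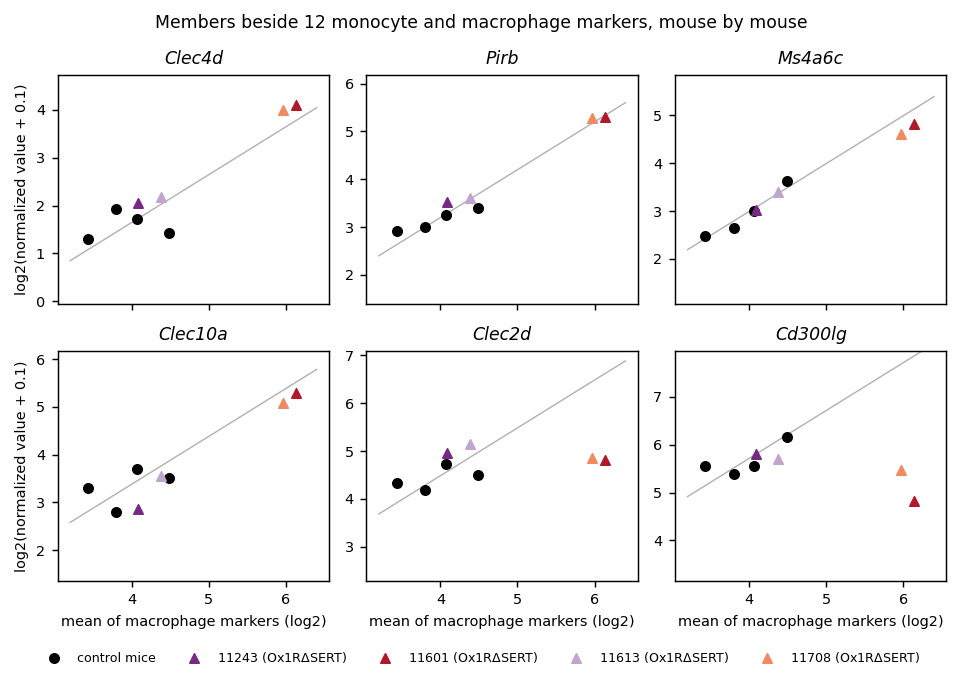
Log2(normalized value + 0.1) of 6 members against the mean of 12 monocyte and macrophage markers on the same scale; circles are control mice, triangles are Ox1RΔSERT mice, and the gray line has slope 1 through the control mean. Pirb, Clec4d, Ms4a6c and Clec10a of mice 11601 and 11708 lie near the line, and Clec2d and Cd300lg lie below it.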

How the data were processed

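RNA of BAT from 4 control and 4 Ox1RΔSERT mice was sequenced as stranded, poly-A selected libraries. The authors quantified genes with Salmon 0.14.1 on GRCm38 (processing notes also name STAR, GRCm38.p6 and DESeq2 1.26.0); the annotation release is not given in the sources used here. For each gene the authors deposited an estimated count without normalization. TPM values were normalized for length and depth by the authors before deposit. Symbols and positions came from GENCODE M21, which matched 44118 of 44674 identifiers (98.8%); the other 556 took 0.0347% to 0.0485% of a mouse's counts. Lilrb4a and Lilr4b were not analysed here, because their GENCODE M21 identifiers were not found in the count table as used here.

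Estimated counts were rounded to whole numbers. All genes were fitted with edgeR 4.0.16 in R 4.3.3 (filterByExpr, TMM, glmQLFit, glmQLFTest, two-sided, Benjamini-Hochberg adjustment, threshold 0.05, no covariates), after being tested on simulated data. Standard errors came from the F statistic. Log2 values of mice used a pseudocount of 0.1. Exact permutation tests were two-sided over 70 assignments of mice, with a smallest p of 0.0286. Named were, per family, the 3 tested members with the highest TPM, in each direction the 5 with the lowest p, those DESeq2 called, and removed members above 10 counts. Alternatives were DESeq2 1.42.0, limma 3.58.1 (voom, and trend on TPM), RLE, upper-quartile and library size scaling, other filters, robust dispersions, an adjusted p under 0.1, each mouse left out and mice 11601 and 11708 left out together. Shared sequence meant at least 95% identity over at least 200 bases between transcripts. Members, lists, tests and alternatives were chosen with earlier results of these data known.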

Additional observations from a re-analysis of the deposited data

Results flagged for a closer look

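In 4 of 76 groups of 4 mice, a mouse lay far from the others of its group, and chance does so in about 1 in 20 groups. All of these were control mice. Mouse 11253 had a normalized value of Cd300ld3 of 2.54 against 0.723 to 0.942 in the other control mice, a value of Cd300lg of 71.1 against 42.1 to 47.0, and a summed TPM of the Cd300 family of 27.0 against 17.7 to 19.2. Mouse 10684 had a summed TPM of the Clec2 genes of 19.0 against 13.1 to 14.0.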

How the results depend on the processing

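Of the named members, Clec4d, Pirb, Ms4a6d and Clec2d kept their direction and an unadjusted p under 0.05 in every alternative. With library size scaling, members lower at an unadjusted p under 0.05 and members lower without overlap were both 0, the Clec2 median was 0.20, Clec14a was 0.11 and Cd300lg 0.000583. On log2(TPM + 1) both lower counts were 0, medians were 0.75 for activating lectins, 0.38 for Clec2, 0.29 for Lilr and Pir and 0.40 for Trem, and Clec14a was 0.12, Clec16a 0.18 and Cd300lg 0.10. On log2(TPM + 0.1) both lower counts were 0, medians were 0.36 for Clec2 and 1.42 for Trem, and Clec14a was 0.20, Clec16a 0.20 and Cd300lg 0.11. Without a filter on low counts the Clec2 median was 0.49. DESeq2 gave 6 members at an adjusted p under 0.05, 0 lower at an unadjusted p and a Clec2 median of 0.50; voom gave 12 higher members and 9 higher partners. Lower partners were 0 with RLE, upper-quartile and library size scaling, both other filters, voom, both TPM scales and robust dispersions. Without mice 11601 and 11708, 5 members were higher and 0 lower, 1 partner was higher and 0 lower, and medians were 0.23 over members, 0.60 for activating lectins, 0.25 for Cd300, 0.0707 for Clec2, 0.19 for DCIR, -0.12 for endocytic lectins, -0.21 for Lilr and Pir, 0.23 for Ms4a, 0.0768 for Siglec and 0.71 for Trem; Clec14a was 0.18, Cd300ld3 -0.0214, Cd300lg 0.0714, Clec10a -0.12, Lilra6 -0.17, Pira2 -0.25 and Siglec1 -0.0864. With 1 mouse left out, ranges were 11 to 33 for higher members, 0 to 1 for lower members and lower partners, 7 to 18 and 1 to 2 for members without overlap (higher and lower), 0 to 26 for DESeq2 calls, 1.52 to 3.08 for the Trem median and -0.29 to 0.12 for Clec14a. Relative to macrophage markers, of 27 members those lower without overlap were 3 with a pseudocount of 1 (2.08% of all genes), 8 against Ptprc (16.6%), 2 with TPM (4.04%) and 1 to 4 with 1 mouse left out. Except where fewer mice or genes entered, the cause was not tested. Members with few counts, such as Clec2e and Trem1, are limited by depth.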

Other observations

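Of the 76 members, 62 lie in 7 clusters of neighbouring genes and 14 lie alone. Counts at an unadjusted p under 0.05 differed between clusters on chromosome 6: 7 of 7 tested members were higher between 122921848 and 123289870, whereas between 128662385 and 129452000, which holds 10 members from Clec2h to Clec1a, 2 of 6 were higher and 1 was lower. On chromosome 7, 1 of 4 tested members was higher in the Pir and Lilr cluster (3711409 to 4243463) and 0 of 2 in the Siglec cluster that ends with Clec11a (43351341 to 44306902). These counts are descriptions, and the difference between clusters was not tested.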
